A study of Mus musculus with 2 samples.

Results

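Lama1, Lamb1, Lamc1, Col4a1, Col4a2, Sparc, Nid1, Nid2 and Hspg2 encode the main building blocks of the basement membrane, and all 9 are described here among 20284 genes with a named probe on the array, of which 16069 passed the filter on dim probes. All 9 members passed it, and each of their 13 probes was well above background in both channels on both arrays. The 9 genes were picked by name with their ratios on these arrays already known, so those ratios are given as a description with no test. The study compared mouse embryonic stem cells (ESCs) of the B6C3F1 strain labelled WT with ESCs of the same strain labelled HDAC6 overexpression, both at passage 26. HDAC6 is a mainly cytoplasmic deacetylase. Both kinds of cell were kept with LIF on mitomycin C treated mouse embryonic fibroblasts, so fibroblast RNA can be present in either sample. Each of the 2 arrays held WT RNA in Cy3 and overexpression RNA in Cy5, and the labels name them biological replicates 1 and 2. How the overexpression was driven, and whether it was in 1 clone, is not given in the sources used here.

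A basement membrane is a thin sheet of extracellular matrix under epithelia. Laminin trimers, built of an alpha, a beta and a gamma chain, polymerise at the cell surface, a network of collagen IV forms beside them, and nidogens and the proteoglycan perlecan join both networks. In the early mouse embryo the first such sheet forms between the epiblast and the primitive endoderm. The parietal endoderm, a derivative of the primitive endoderm, secretes the same components into Reichert's membrane in very large amounts.

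Col4a1 and Col4a2 lie head to head and had the second and the third highest ratios among the members, so their promoter windows are printed for that reason. Windows of 250 bases before to 50 after the annotated start, from RefSeq on GRCm38.p6, were at hand for 6 of the 9 genes (Lamb1, Col4a1, Col4a2, Sparc, Nid1 and Hspg2). The window of Col4a1 is chr8:11312777-11313076 on the minus strand and that of Col4a2 is chr8:11312555-11312854 on the plus strand. The annotated first bases of both genes lie 21 bases apart, each inside the other gene, so the genes overlap at their starts. The windows share 78 bases, read on opposite strands. Capitals mark matches on either strand to CCAAT and to GGGCGG, the core of the GC box, both common promoter elements.
Col4a1 promoter: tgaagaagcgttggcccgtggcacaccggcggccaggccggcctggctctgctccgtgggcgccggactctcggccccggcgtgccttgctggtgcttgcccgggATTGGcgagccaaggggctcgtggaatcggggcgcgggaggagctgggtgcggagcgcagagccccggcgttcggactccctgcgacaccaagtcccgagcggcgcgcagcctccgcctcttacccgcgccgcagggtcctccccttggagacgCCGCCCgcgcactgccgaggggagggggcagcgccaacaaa
Col4a2 promoter: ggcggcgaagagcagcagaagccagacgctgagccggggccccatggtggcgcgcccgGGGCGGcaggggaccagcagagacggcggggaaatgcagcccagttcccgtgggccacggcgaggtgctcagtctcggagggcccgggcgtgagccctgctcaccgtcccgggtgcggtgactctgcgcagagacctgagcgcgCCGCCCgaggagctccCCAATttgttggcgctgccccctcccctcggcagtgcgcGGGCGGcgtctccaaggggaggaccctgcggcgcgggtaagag

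The Col4a1 window held 1 match to CCAAT, starting at position -145 (counted from 1 at the annotated first base, with no 0), and 1 to GGGCGG, at position 10. The Col4a2 window held 1 match to CCAAT, at position -32, and 3 to GGGCGG, at positions -192, -48 and 8. The GGGCGG at position 8 of Col4a2 and that at position 10 of Col4a1 are the same bases, and this was the 1 match that both windows shared. Among the 6 windows, 4 held CCAAT (Lamb1, Col4a1, Col4a2 and Nid1) and 5 held GGGCGG (all but Sparc). Of all 32851 promoter windows in the table, 37.4% held CCAAT and 35.7% held GGGCGG on either strand. GATAA, part of the GATA factor motif, ACAAT, part of the SOX factor motif, and TATAAA, the TATA box, were in none of the 6 windows, against 25.4%, 31% and 13.6% of all windows. These searches say only which letters stand in these windows. The Col4a1 and Col4a2 windows had a GC content of 74% and 73.7%, against a median of 52.7% over all windows, while the Sparc window had 55.3% and 4 CpG dinucleotides. The CpG count was 37 for Col4a1 and 33 for Col4a2, against a median of 7.

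Values below are processed signals, in intensity units, of the WT and the overexpression channel, and log2 ratios of overexpression over WT, with mean ± SD over 2 arrays (n = 2). Where a gene had several probes, the brightest stands for it. The others are given for every member, but only for some of the other genes. The same dye orientation on both arrays leaves dye effects in each ratio, and a higher ratio cannot tell more RNA per cell from more cells of a type. The probe of Hdac6 itself gave 0.16 and -0.038 on the log2 scale (mean 0.060 ± 0.14, limma adjusted p = 0.64), and 0.52 with median centring (limma adjusted p = 0.0010). Its only other probe had a mean of 0.089. Whether either probe reads the transgene is not settled by the sources used here. The Cy5 sample is therefore named as its label names it, and directions rest on that label. The ESC marker genes Pou5f1, Nanog, Sox2 and Zfp42 were well above background in both channels on both arrays.

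The basement membrane genes were all brighter in the overexpression channel than in the WT channel, on both arrays. Replicate 1 gave a median log2 ratio of 1.298 and replicate 2 one of 1.291, against -0.071 and -0.057 over all genes tested. On both arrays the members' median is the ratio of Lamc1, the middle gene of the 9. The ratios ran from 0.30 to 4.35 in replicate 1 and from 0.25 to 4.16 in replicate 2. At least 2-fold higher on both arrays were 5 of the 9 members, while 3.03% of all genes tested were that much higher and 4.39% that much lower. As these ratios were known when the genes were picked, nothing is read from that count.

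**Figure D1:**
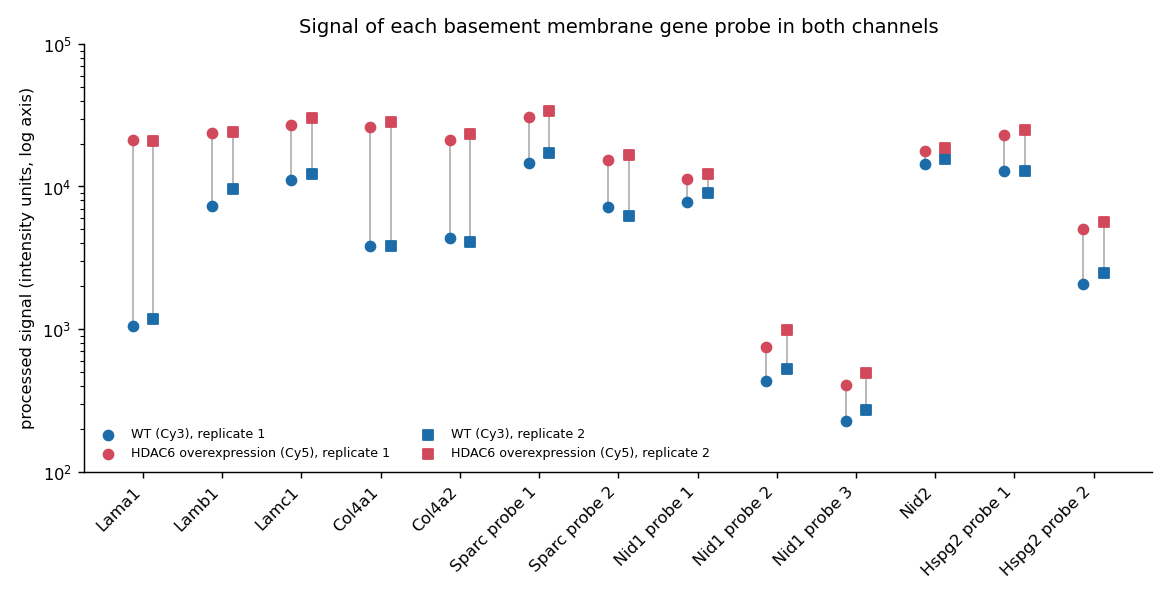
Processed signal (log axis) of each of the 13 probes of the 9 genes. Blue is the WT and red the overexpression channel, circles are replicate 1 and squares replicate 2, and grey lines join the channels of an array. The longest line is that of Lama1, whose WT signal was 1045 and 1174, and the shortest is that of Nid2.

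The 3 laminin chains of laminin-111, the trimer of the early embryo, did not have equal ratios. Lama1, which encodes the alpha 1 chain, had the highest ratio of the members. Its WT signal was 1045 in replicate 1 and 1174 in replicate 2, and its overexpression signal 21268 and 20909. Both WT values lay far below both overexpression values. That is 20.4-fold and 17.8-fold, or a log2 ratio of 4.25 ± 0.14. Lamb1, the gene of the beta 1 chain, had WT signals of 7354 and 9542 and overexpression signals of 23818 and 24288. The overexpression channel hardly differed between the arrays, and the WT channel was higher in replicate 2, so the ratio was 1.70 in replicate 1 and 1.35 in replicate 2 (1.52 ± 0.25). This was the largest spread between arrays among the brightest probes of the members. Lamc1, which encodes the gamma 1 chain found in most laminins, had WT signals of 11055 and 12282 and overexpression signals of 27188 and 30048. Both channels were brighter in replicate 2 by a similar factor, and the ratio was 1.30 and 1.29 (1.29 ± 0.0053). On each array the log2 ratio of Lama1 exceeded that of Lamb1 by 2.65 and 2.81, and that of Lamc1 by 3.05 and 2.86. Lamb1 exceeded Lamc1 by 0.40 in replicate 1 and by 0.057 in replicate 2, which is less than the SD of Lamb1.

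Collagen IV, the network-forming collagen of every basement membrane, is mostly a trimer of alpha 1 and alpha 2 chains. Col4a1, the gene of the alpha 1 chain, had WT signals of 3816 and 3853 and overexpression signals of 26107 and 28272. Its ratio was 6.84-fold in replicate 1 and 7.34-fold in replicate 2, a log2 ratio of 2.82 ± 0.071. Its probe is spotted 10 times on the array, which gives an error within each array. The SD of the log2 ratio over copies was 0.028 in replicate 1 (10 spots) and 0.043 in replicate 2 (9 spots, after 1 outlier-marked spot was left out). Single spots ran from 2.73 to 2.81 in replicate 1 and from 2.79 to 2.93 in replicate 2. The spots of both arrays thus overlapped in part. Col4a2, the gene of the alpha 2 chain, had WT signals of 4357 and 4067 and overexpression signals of 21146 and 23280. The channels were far apart on both arrays, by 4.85-fold and 5.72-fold, a log2 ratio of 2.40 ± 0.17. The ratio of Col4a1 was higher than that of Col4a2 by 0.495 in replicate 1 and by 0.36 in replicate 2. Probe response differs between sequences, so this gap between genes was not tested as a difference in RNA.

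**Figure D2:**
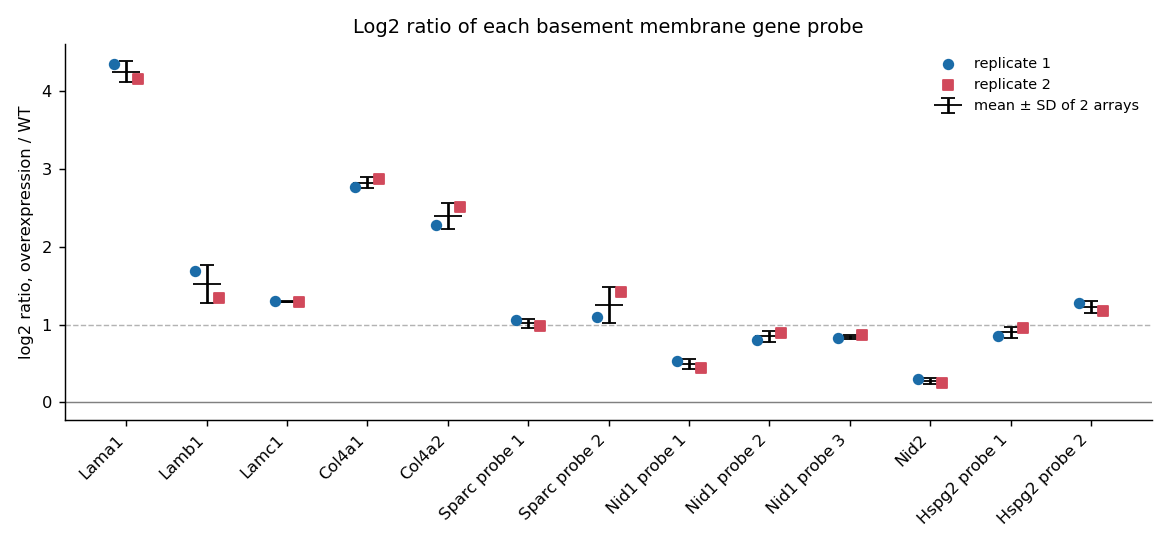
Log2 ratio of overexpression over WT for each of the 13 probes, with replicate 1 in blue, replicate 2 in red and black bars for the mean ± SD of 2 arrays. The solid grey line is at 0 and the dashed line at 2-fold. All points lie above 0. Below the dashed line on both arrays lie the 3 probes of Nid1, that of Nid2 and the brighter one of Hspg2, and in replicate 2 also the brighter one of Sparc.

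Sparc encodes a secreted collagen-binding glycoprotein (osteonectin, or BM-40) that is abundant in parietal endoderm and also in fibroblasts. Its brighter probe had WT signals of 14724 and 17242 and overexpression signals of 30623 and 33924, a log2 ratio of 1.06 and 0.98 (1.02 ± 0.057). The dimmer probe had WT signals of 7174 and 6241 and overexpression signals of 15308 and 16631, a log2 ratio of 1.09 and 1.41 (1.25 ± 0.23). Both probes had the overexpression channel above the WT channel on both arrays. They were close in replicate 1 and apart in replicate 2, where the brighter probe fell just under 2-fold, at 1.97-fold.

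The nidogens, rod-shaped glycoproteins that bind laminin and collagen IV, had the lowest ratios of the members. Nid1 had 3 probes. The brightest had WT signals of 7767 and 9023 and overexpression signals of 11263 and 12295, a log2 ratio of 0.54 and 0.45 (0.49 ± 0.064). The dimmer ones had ratios of 0.80 and 0.89 (0.85 ± 0.065), over WT signals of 429 and 528, and of 0.83 and 0.86 (0.84 ± 0.024), over WT signals of 227 and 271. The dim probes thus lay close to each other and above the bright probe on both arrays. Nid2, the paralogue of Nid1, had WT signals of 14345 and 15591 and overexpression signals of 17646 and 18569. This is 1.23-fold and 1.19-fold, the smallest difference among the members (0.28 ± 0.033), and the channels still did not overlap.

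Hspg2 encodes perlecan, a large proteoglycan whose heparan sulfate chains bind growth factors and laminin. Its brighter probe had WT signals of 12855 and 12798 and overexpression signals of 23134 and 24767, a log2 ratio of 0.85 and 0.95 (0.90 ± 0.074). Its dimmer probe had WT signals of 2067 and 2483 and overexpression signals of 5017 and 5603, a ratio of 1.28 and 1.17 (1.23 ± 0.075). The dimmer probe was at least 2-fold on both arrays and the brighter on neither. In each of the 3 members with several probes (Sparc, Nid1 and Hspg2), the brightest probe thus had the lowest mean processed ratio. The raw signals, from which no background was subtracted, did not show this. Background weighs more on dim probes, so the raw and processed ratios of these are not alike in kind. There the brighter probe had 1.83 and 1.83 for Sparc, against 1.44 and 1.80 for the dimmer one. For Hspg2 it had 1.51 and 1.61, against 1.31 and 1.34. For Nid1 the brightest probe had 0.82 and 0.85, and the dimmer ones 0.67 and 0.97, and 0.68 and 0.83.

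By the brightest probe, the order of ratios was Lama1, Col4a1, Col4a2, Lamb1, Lamc1, Sparc, Hspg2, Nid1 and Nid2. No 2 neighbours in this order overlapped between arrays, but with 2 arrays this is a weak separation, and the gap of 0.12 between Sparc and Hspg2 was smaller than the gap between the probes of either gene. Of all genes tested, 99.9% had a lower mean ratio than Lama1, 99.6% than Col4a1, 97.6% than Lamc1 and 77.3% than Nid2.

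The size of the members' ratios depended on how the arrays were scaled. In the raw signals, with no background subtracted, the ratio was higher than in the processed ones on both arrays for 11 of the 13 probes. The same count was not made over all probes of the array, so it is not read as particular to these genes. For the brighter Sparc probe the raw WT signal was 17800 in replicate 1 and the raw overexpression signal 63197 (replicate 2: 19315 and 68554), a raw log2 ratio of 1.83 on each array, against 1.06 and 0.98 after processing. For Lama1 the raw ratio was 4.42 and 4.31, close to the processed values. With normexp background correction and loess, the members had a median of 1.39 and ranged from 0.27 to 4.18. With median centring of the arrays instead of loess, the median was 1.80, Sparc had 1.65, Hspg2 1.38, Nid2 0.69 and Nid1 0.66. All 9 members had a ratio above 0 under each of these scalings. The order of the 9 was kept with loess, and Nid1 and Nid2 changed places with median centring.

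**Figure D3:**
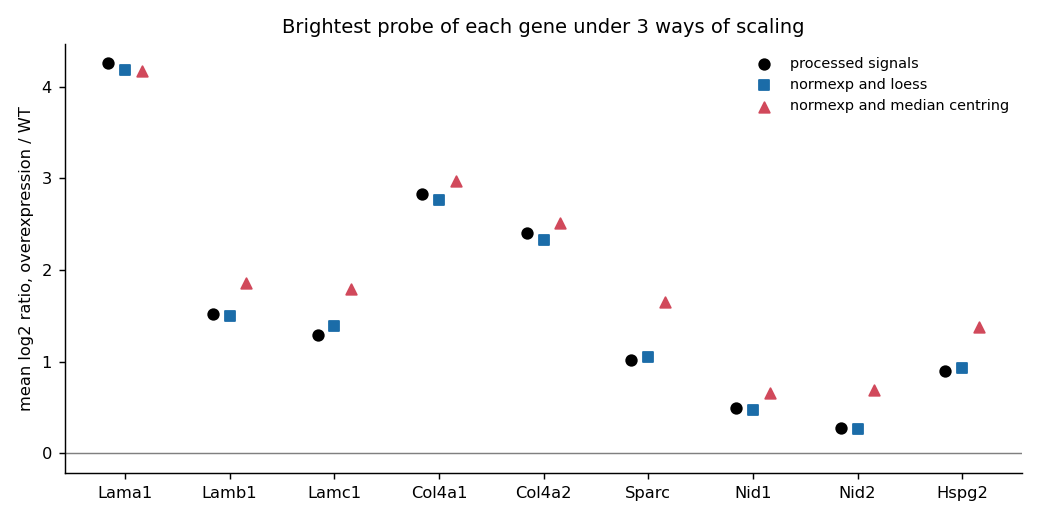
Mean log2 ratio of the brightest probe of each gene with the processed signals (black circles), with normexp and loess (blue squares) and with normexp and median centring (red triangles). Lama1 is near 4.2 under each, while Sparc moves from 1.02 to 1.65 with median centring.

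The 9 genes lie on 8 chromosomes, and Col4a1 and Col4a2 on chromosome 8 are the only pair that are neighbours. Since whole chromosomes can shift in ESC lines, each member is set beside the median ratio of the other genes of its chromosome that were well above background in both channels. That median was -0.51 on chromosome 11 (1294 genes), which carries Sparc, -0.25 on chromosome 8 (825 genes), and 0.24 on chromosome 1 (862 genes), which carries Lamc1. On chromosomes 4, 12, 13, 14 and 17 it was between -0.089 and -0.012. The members' ratios were higher than the median of their chromosome in each case, with Sparc at 1.02 on chromosome 11. The members were picked with their ratios known, and even Nid2, the lowest, lay above 77.3% of all genes tested. This outcome was therefore largely set beforehand, and the part of a chromosome shift in the ratios was not tested.

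Neighbours along the chromosome were set beside 8 of the members (all but Lamc1). Each of these nearest tested genes had a lower mean ratio than the member beside it, apart from the Col4a1 and Col4a2 pair itself. As the members were picked with their ratios known, nothing is read from that. Beside that pair stood Irs2, an insulin receptor substrate gene, at -0.40 ± 0.088, and Rab20, a small GTPase gene, at 0.48 ± 0.070. Lama1 had Lrrc30 at 0.20 ± 0.010 and Arhgap28 at -0.43 ± 0.039 as neighbours. Lamb1 had Fam110c at -0.44 ± 0.053 and Dld at -0.35 ± 0.10. Neighbours of Sparc, Nid1, Nid2 and Hspg2 ran from -0.39 to 0.21.

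**Figure D4:**
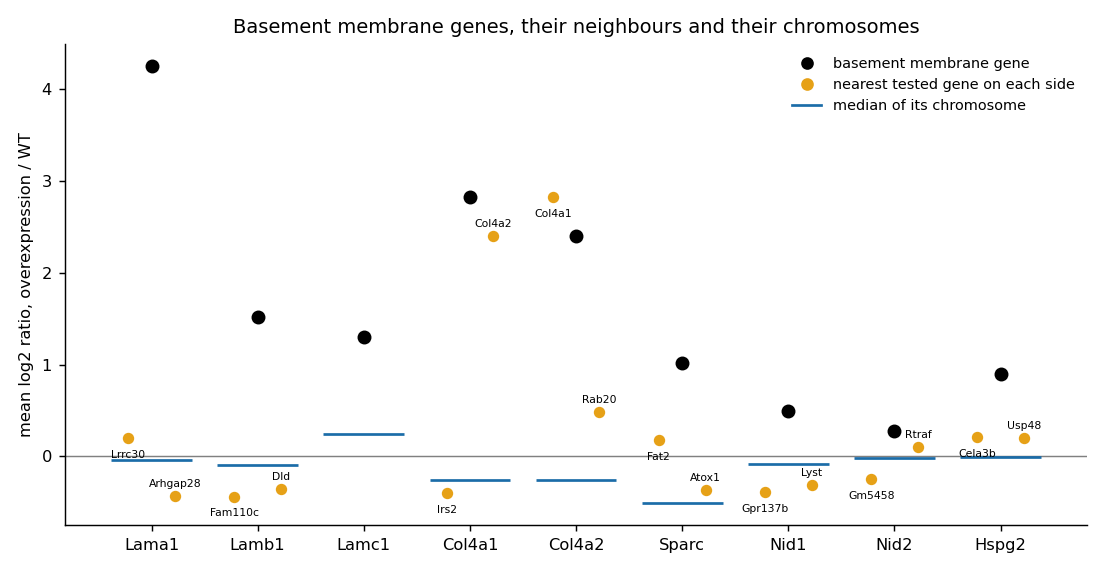
Mean log2 ratio of each of the 9 genes (black), of the nearest tested gene on each side of 8 of them (orange, with names; not drawn for Lamc1) and the median of its chromosome (blue line). Apart from the pair Col4a1 and Col4a2, each a neighbour of the other, the neighbours lie between -0.44 and 0.48.

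Other genes of basement membrane assembly were counted in 8 lists, which hold 108 genes without the members, 100 of them tested. With limma and Benjamini-Hochberg adjustment over all genes (adjusted p under 0.05), 54 of the 100 were higher in the overexpression channel and 12 lower, with a median log2 ratio of 0.37 against -0.061 over all genes. Over all genes tested, 21.2% were higher and 29.9% lower by that rule. The lists, like the members, were chosen with earlier results of these data known, so nothing is read from that difference. The p-values measure only the spread between 2 arrays, with 1 residual degree of freedom for each gene. In limma each gene's spread is drawn towards that common to all genes (4.6 prior degrees of freedom). The labels call the arrays biological replicates but do not say whether they held separate cultures, so that spread may be technical.

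Of the other laminin chains, 6 of 8 tested were higher and 1 lower (median 0.56). The highest by the brightest probe was Lama4, of the alpha 4 chain found in vessels and mesenchyme, at 1.01 ± 0.20 (limma adjusted p = 0.0012). Lama2, the alpha 2 chain of muscle and nerve, had 0.88 ± 0.080, and its only other probe had 1.18, above Lama4. Lamb3 had 0.69 ± 0.060 and Lamb2 0.64 ± 0.27. Lama3, of the epithelial alpha 3 chain, was the one that was lower (-0.60 ± 0.10, named after its values were seen). The alpha chain genes thus differed in direction, and each lay below the 4.25 of Lama1 on both arrays.

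Of the other basement membrane collagens, 2 of 6 tested were higher and 1 lower (median 0.21). Col4a6, a chain of some epithelial and smooth muscle basement membranes, was lower by its brighter probe (-1.01 ± 0.15, limma adjusted p = 0.0010), while its only other probe had -0.036. Col4a5 was higher (0.45 ± 0.18). Col15a1 was called higher by its brightest probe, which was not well above background in WT on either array and gives at least 1.34-fold. Its other probes had 0.29 and -0.86, and the mean over probes was not called, so its direction is uncertain. None of these chains came near the 2.82 and 2.40 of Col4a1 and Col4a2.

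Among 12 tested proteins associated with basement membranes, 4 genes were higher and 2 lower. The median was 0.074 over both arrays, 0.001 in replicate 1 and 0.307 in replicate 2. Tinagl1, a secreted matrix protein that binds laminin and integrins, rose 7.19-fold (2.85 ± 0.10, limma adjusted p = 4.8e-05), and its only other probe had 2.42. Fbln2 and Fbln1, of the fibulin family, had 1.47 ± 0.41 and 0.60 ± 0.021. Fras1, of the complex that anchors the embryonic epidermis, fell by 0.96 on the log2 scale. Of 5 tested relatives of Sparc, 2 were higher and 1 lower (median 0.19, and -0.017 with no filter on dim probes), with Smoc2 at 1.40 ± 0.091, Fstl1 at 0.79 ± 0.15 and Sparcl1, the closest relative of Sparc, at -0.44 ± 0.072.

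Of 14 tested receptor genes, 5 were higher and 1 lower, and 8 were not called (median 0.089, and 0.10 and 0.18 on the single arrays). The laminin receptor subunit genes Itgb1 and Itga6 were among those not called, at 0.025 ± 0.32 and -0.070 ± 0.20, as was dystroglycan (Dag1), at -0.24 ± 0.11; these 3 are named after their values were seen. Sdc4, a cell surface proteoglycan gene, was higher (1.16 ± 0.097), as were Bcam, a receptor of laminin alpha 5 (0.70 ± 0.44), and Ddr2, a collagen receptor (0.55 ± 0.39). Itga2, a collagen receptor subunit gene, was not well above background in WT on either array and was at least 1.40-fold higher (limma adjusted p = 1.9e-04). Such bounds set the overexpression level against the lowest level well above background, or the WT level where higher, after loess and Aquantile, and are open to dye bias.

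Collagen chains are hydroxylated, folded and packed into large carriers in the endoplasmic reticulum. Of 21 tested genes of these steps, 15 were higher and 2 lower (median 0.39, and 0.68 with median centring). P4ha3, a prolyl 4-hydroxylase subunit gene, had 1.59 ± 0.57, and its other probe 0.91. P3h2, a prolyl 3-hydroxylase gene, had 1.43 ± 3.8e-04, the collagen chaperone gene Serpinh1 (HSP47) 0.96 ± 0.068, and Colgalt1, which adds galactose to collagen, 0.94 ± 0.17. The 2 that were lower, named after their values were seen, were P4hb (-0.52 ± 0.018), the shared beta subunit of prolyl 4-hydroxylases, and Sar1b (-0.45 ± 0.21), a GTPase of the secretory coat. Median centring left 0 of this list lower.

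Enzymes that build and edit heparan sulfate, the chain that perlecan carries, had 5 of 14 tested higher and 2 lower (median 0.23). Hs6st1 and Hs2st1, sulfotransferase genes, had 0.77 ± 0.073 and 0.57 ± 0.032. Xylt2, which starts the chains, had -0.92 ± 0.14 and B3galt6 -0.38 ± 0.25, which lost its call with no filter on dim probes (limma adjusted p = 0.0622). Of 20 tested crosslinking enzymes, proteases and inhibitors, 15 were higher and 2 lower (median 0.90). Mmp3, a stromelysin gene, had 1.63 ± 0.58, the lysyl oxidase family genes Loxl3 and Lox 1.57 ± 0.22 and 1.30 ± 0.48, and Plat, of tissue plasminogen activator, 1.30 ± 0.044. This list had a median of 0.73 in replicate 1 and 1.17 in replicate 2.

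Markers of cell types that the samples could hold were counted in 6 lists, also chosen with earlier results of these data known. Of the primitive endoderm regulators, 8 of 8 were higher, with medians of 3.36 in replicate 1 and 3.41 in replicate 2. Over both arrays the list's median was 3.02 with loess and 2.92 with median centring. It was 3.52 with the mean over probes and 3.43 with the filter that asks for both channels. The summed signal of these regulators was 2741 and 3024 in WT and 35960 and 37180 in overexpression. Gata4 and Foxa2, transcription factor genes, had 4.96 ± 0.17 and 4.93 ± 0.13 (limma adjusted p = 2.0e-05 and 1.9e-05), Gata6 3.43 ± 0.10 and Hnf4a 3.90 ± 0.044. For Hnf4a the WT signals were only 42.5 and 43.7, and the log2 ratio of Hnf4a was 2.63 with loess and 2.59 with median centring. Of the parietal endoderm markers, 5 of 5 were higher, with medians of 1.27 and 1.36 and summed signals of 11630 and 12980 in WT and 30120 and 37810 in overexpression. Pth1r, a parathyroid hormone receptor gene, had 1.95 ± 0.012, Fst, of the activin antagonist follistatin, 1.42 ± 0.39, and Thbd, of thrombomodulin, 1.33 ± 0.028, beside Plat, which is in this list too.

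Of 8 visceral endoderm markers, 6 were higher and 2 lower (summed signals of 4768 and 5312 in WT, 37820 and 37070 in overexpression). The 2 that were lower, named after their values were seen, were Rbp4, of a retinol carrier, at -1.35 ± 0.31 (WT signals of 3327 and 3925) and Afp, of alpha-fetoprotein, at -0.65 ± 0.063. The endocytic receptor genes Cubn and Amn had 5.51 ± 0.055 and 4.36 ± 0.0052. Ttr and Cer1 were not well above background in WT on either array, so only bounds of at least 16.8-fold (Ttr) and at least 4.26-fold (Cer1) hold. Apoa1 was not well above background in WT either. Because 3 of the 8 genes have only a bound, no median is given for this list. With the filter that asks for both channels, 3 were higher.

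Fibroblast markers were higher in 17 of 18 genes tested, and 0 were lower. Their median was 0.91 in replicate 1 and 1.40 in replicate 2, and their summed signal was 118400 and 112500 in WT and 231800 and 304500 in overexpression. Col1a2, a fibrillar collagen chain, had 1.71 ± 0.46, S100a4 1.68 ± 0.25, Lum, of the proteoglycan lumican, 1.52 ± 0.22, and Thy1 1.47 ± 0.34. All of these were well above background in WT. The fibroblast median was higher in replicate 2 than in replicate 1 by 0.49. That of the 9 basement membrane genes was 1.298 and 1.291, but both values are those of Lamc1. Single members moved either way between the arrays, with Col4a2 at 2.28 and 2.52 and Lamb1 at 1.70 and 1.35. Lysyl oxidase Lox, in the crosslinking list, had 0.96 in replicate 1 and 1.64 in replicate 2. Fibroblasts make many of the same matrix proteins, and the part of feeder RNA, or of endoderm-like cells, in the ratios of the members was not tested.

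Endothelial markers were mixed, with 3 of 7 tested higher and 4 lower. Cdh5 had 1.06 ± 0.045 and Esam 0.98 ± 0.070, whereas Cldn5 had -1.87 ± 0.14. For Emcn, whose overexpression signal was not well above background on either array, the ratio was at least 1.44-fold lower. Summed signals were 9404 and 9675 in WT and 8914 and 8724 in overexpression, and Tie1 and Erg did not pass the filter. Of 9 ESC markers, 2 were higher and 4 lower, among them Esrrb at 0.73 ± 0.14, Tdgf1 at -1.11 ± 0.045, Dppa5a at -0.53 ± 0.062 and Zfp42 at -0.50 ± 0.027. With median centring 6 were higher and 2 lower, and Tdgf1 lost its call (-0.15, limma adjusted p = 0.179). The summed signal was 188400 and 202800 in WT and 169300 and 181600 in overexpression. Pou5f1 and Sox2 were not called (0.22 ± 0.16 and 0.18 ± 0.090), but both were higher with median centring, and Pou5f1 also with loess and with a trended prior. Nanog was at the threshold (-0.29 ± 0.11, limma adjusted p = 0.050 after rounding), was not called with loess and was higher with median centring (0.92, limma adjusted p = 8.5e-06).

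The members' medians on the 2 arrays are the ratios of Lamc1. Outside these lists, the genes whose ratios lay nearest to these medians were Tcl1, Ptx3, Ubash3b, Hmx2 and Prl2c1. Their mean log2 ratios were 1.28, 1.32, 1.25, 1.34 and 1.34, at Euclidean distances of 0.029 to 0.065 over 2 arrays. With 2 arrays of 1 contrast, likeness here means only a similar ratio.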

How the data were processed

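Total RNA was extracted with Trizol, amplified linearly and labelled, per the labels' protocols. Per the file headers, the arrays were scanned and read with Agilent Feature Extraction 11.5.1.1 on a grid built on mm9. The deposited files hold raw median intensity values of spots and local background, and also processed intensity values. Background subtraction and a linear plus lowess dye correction had been applied to the latter, per the file headers. Taking log10 of their quotient gives back the deposited log10 ratios. The deposited series table holds log2 values that correlated at -1 with the ratios used here (slope -1), so it runs WT over overexpression; its column medians are -0.0074 and 0.062. This comparison gives its scale and direction, while any further centring stays unknown.

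Here log2 ratios of processed Cy5 over Cy3 signals were taken with no further normalization, because the rule that picked the 9 members names processed signals. An earlier treatment of these data used normexp with loess, which is an alternative here. Control and outlier-marked spots (269 and 313) were left out and spots of a probe averaged. No spot was saturated. Of 55681 probes, 26762 were paired with 1 symbol through their accession in a RefSeq table of GRCm38.p6, 0 with several and 28919 with none, which served for names, chromosomes and gene order. The brightest probe stood for a gene, kept when well above background in 1 same channel on both arrays (16069 genes). Ratios were tested against 0 with limma 3.58.1 (lmFit, eBayes, R 4.3.3, two-sided) and Benjamini-Hochberg adjustment. Tested on simulated data, it made more false calls than the threshold allows in most draws when few genes changed, and fewer than that when about as many changed as were called here. The latter case takes its number of changed genes from the calls themselves, so the share of false calls here stays unknown. Members were not tested. Some values of single genes are not reported here. The number of arrays limits the precision. Well above background were 68% to 68.8% of probes in each channel, and median processed signals were 218 to 233. Across genes, which are not independent replicates, the arrays' log2 ratios had Pearson r = 0.924 and Spearman rho = 0.896.

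Members and lists were chosen with earlier results of these data known. Named genes are up to 4 of each list with the largest absolute ratio past the threshold and the same sign on both arrays (up to 2 where none passed), Hdac6, 4 ESC genes and the 5 genes nearest to the members' medians; neighbours were chosen by position, and others are said to be named after their values were seen. Alternatives were normexp (offset 50) with loess or median centring, the series table, the mean over probes, filters on dim probes, keeping outlier-marked spots, a prior with an intensity trend and leaving out each replicate.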

Additional observations from a re-analysis of the deposited data

How the results depend on the processing

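The median log2 ratio of the 9 genes was 1.295 with the processed signals, 1.393 with normexp and loess and 1.796 with normexp and median centring. Each median of the 9, here and below, is the value of Lamc1, the middle gene. Of the alternatives that keep both arrays, 3 changed the members' values. Keeping outlier-marked spots returned 1 spot of Col4a1, whose ratio stayed at 2.825 after rounding. At least 1 SD between arrays was the shift of 7 of 9 members with median centring, of 1 of 9 (Lamc1) with loess and of 3 of 3 members with several probes with the mean over probes, and 0 reversed. Without replicate 1 or replicate 2 the members' median was 1.291 and 1.298, and 5 and 6 members were at least 2-fold higher on the array left. With loess, 288 genes passed 2-fold on both arrays as higher and 454 as lower, against 487 and 706. On replicate 2 alone 893 genes were that much higher and 1067 lower, and on replicate 1 alone 566 and 855; these are values with no test. The counts over the 8 pathway lists together (50 to 59 higher and 9 to 13 lower over 8 alternatives) stayed within 1.5 times those reported. Of the named genes, Nanog reversed, to 0.915 with median centring. The causes were not tested. With 1 residual degree of freedom, small changes in a list of few genes are not resolved. No paired analysis was possible because each ratio already pairs the WT and overexpression RNA of 1 array, which leaves no replicate block to add.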
